A study of Mus musculus with 2 samples.

Results

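Transcripts of immunoglobulin heavy chains, light chains and the J chain were followed through 90 of the 41174 gene probes of a mouse array, in pancreatic lymph nodes of hyperglycemic against euglycemic NOD mice. A probe was taken if its gene name in the files began with Igh, Igk or Igl, or was Igj. It was also taken if its description named an immunoglobulin with a heavy, kappa, lambda or light chain, and the unrelated Ighmbp2 and Iglon genes were left out. The name chose 57 probes and the description 33. No measured value was used in the choice. By these names the probes fell into 6 for the mu heavy chain of IgM, 7 for gamma chains of IgG and 1 for the alpha chain of IgA. A further 3 were designed to a single heavy chain cDNA of the J558 family (BC004786), and 39 matched other heavy chain sequences, mostly variable regions. The light chains had 14 kappa probes, 9 lambda probes and 7 probes whose type was not named. The J chain and the surrogate light chain gene Igll1 had 2 probes each. In the deposited positions of build mm8, 52 probes lay on chromosome 12, 20 on chromosome 6, 11 on chromosome 16, 2 on chromosome 5, and 5 had no position.

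NOD is an inbred mouse strain that develops autoimmune diabetes, and the pancreatic lymph node drains the pancreas. The hyperglycemic group was 2 female NOD mice of 16 weeks with blood glucose above 500 mg/dl, 1 on each of 2 two-colour arrays in the Cy5 channel. The control was a single pool of 2 female euglycemic NOD mice of the same age with blood glucose below 200 mg/dl, read in the Cy3 channel of both arrays. No treatment or transgene is given for either group. How control mice vary among themselves is thus unknown, dyes were not swapped, and a dye effect of a single probe cannot be told apart from the difference between the groups. The labels call the hyperglycemic nodes sample 1 and sample 2 without more detail, and they are called mouse 1 and mouse 2 here. The p-values weigh the spread between these samples, which limma draws towards the spread shared by all tested probes. The spread among control mice is not in them.

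An antibody is built of paired heavy and light chains. The heavy chain's constant region sets the isotype: mu for IgM, which naive B cells carry on their surface, and gamma, alpha or epsilon for IgG, IgA or IgE after class switching. The light chain is either kappa, which most mouse B cells use, or lambda. The J chain joins secreted IgM and IgA into polymers, and Igll1 replaces the light chain in precursor B cells. Lymph node B cells express these chains, and plasma cells transcribe them at very high levels for secretion. Each B cell assembles its own variable region, so a probe in a variable segment reads only the cells that use that segment.

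Most of the probes could not be read in the hyperglycemic samples. The Cy5 channel was dim across the array, with a median spot signal of 37.7 for mouse 1 and 38.2 for mouse 2 over a background of 35. The Cy3 median was 234 on array 1 and 81.2 on array 2. Of the 90 immunoglobulin probes, 22 were well above background in Cy5 on array 1 and 24 on array 2. In Cy3, 36 probes were well above background on array 1 and 82 on array 2. Of all gene spots, 14.5% on array 1 and 16.4% on array 2 were well above background in Cy5. In Cy3 these shares were 21.7% and 63.0%, so the immunoglobulin probes were readable more often than the array as a whole. No spot was saturated. On both arrays, 19 probes passed in Cy3 and Cy5 alike, beside 5072 of all 41174 gene probes. Of the 90, these 19 alone were tested. They comprised 4 mu probes, 2 gamma probes, the 3 probes of BC004786, 3 other heavy chain probes, 5 lambda probes and both J chain probes. Of the other 71, 10 were well above background in Cy3 on both arrays and in Cy5 on neither, and 8 were well above background in Cy5 on 1 array. Another 45 were above it only in Cy3 on 1 array, and 8 in no channel of any array. Cy5 signals of the tested probes ran from 47.1 to 1196 and their Cy3 signals from 449 to 97064, while no untested probe had a Cy5 signal above 56.1. The tested probes are therefore those with enough Cy5 signal, and they do not stand for all 90.

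In the log2 ratios of the scanning software, immunoglobulin probes were mostly lower in the hyperglycemic mice than in the pool. Of the 19 probes tested, 11 fell, 2 rose and 6 did not pass limma's test at a Benjamini-Hochberg adjusted p of 0.05. Over all 5072 probes tested, 18.4% were called lower and 25.1% higher. The median log2 ratio of the 19 probes was -0.61, a 1.53-fold lower signal, against 0.06 for all 5072 probes. It was -0.46 in mouse 1 and -0.69 in mouse 2. Both mice were below the pool at 15 of the 19 probes, against 37.4% of all probes tested. In a bulk sample, fewer cells of a type and less RNA per cell cannot be told apart. These counts belong to 1 normalization. With scanner signals corrected by normexp (offset 50) and scaled by loess over all probes, no immunoglobulin probe was called in either direction by limma, 7 had an unadjusted p under 0.05, and the median was -0.15. Under that scheme 94 of all 5072 probes were called higher and 0 lower, with 1159 at an unadjusted p under 0.05, so no lower call given here held. With a loess curve drawn on probes readable in both channels, 11 fell, none rose, and the median was -0.41, while 420 of all 5072 probes were called lower and 487 higher. Without background correction, 5 fell and 3 rose, beside 652 lower and 1001 higher of all 5072.

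The mu heavy chain was lower in both mice at each of its 4 readable probes. The probe for transcript ENSMUST00000101001 (A_51_P266248, chr12:113863874-113863933) had log2 ratios of -0.95 in mouse 1 and -1.04 in mouse 2. Its mean was -0.99 ± 0.06 (SD, n = 2; adjusted p = 0.00288, limma), and it stayed below 0 under each loess scaling tried. This probe lies 2525 bases below the next Igh-6 probe, and whether it reads mu, as its description says, or a neighbouring constant gene was not settled. The probe for ENSMUST00000003582 (A_52_P571419, chr12:113868697-113868756), which had the highest signal of all 19, gave -0.75 and -0.99. Its mean of -0.87 ± 0.17 (adjusted p = 0.00516, limma) turned to 2.13 under normexp with offset 50 and loess. The gene Igh-6, an older name for the IgM heavy chain, had 2 further probes. A_51_P485421 (chr12:113869227-113869286) gave -0.57 and -0.68, a mean of -0.63 ± 0.08 (adjusted p = 0.0152, limma), and kept its direction under each loess scaling. A_52_P358360 (chr12:113866458-113866517) gave -0.57 and -0.69, a mean of -0.63 ± 0.09 (adjusted p = 0.0151, limma), and turned to 1.23 under normexp with offset 50. All 8 values of these probes lay below 0 in the software's ratios, and the mice differed by 0.24 or less at each probe.

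A_51_P485421 was printed several times on each array, which shows the spread of the measurement within a sample. Over 10 spots of array 1 its log2 ratio ranged from -0.72 to -0.36 around a median of -0.61. Over 8 unmarked spots of array 2 it ranged from -0.77 to -0.56 around -0.70. The spot ranges of both arrays overlap, and every spot lay below 0. The other 2 mu probes were read in Cy3 on array 2 alone and had no readable Cy5 signal. They were ENSMUST00000100998 (A_52_P156852) and Igh-6 A_52_P311042, and the latter lies among the variable segments at chr12:114736061-114736120.

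The 2 readable probes named for gamma heavy chains were lower in both mice, with the lowest class median in the software's ratios, -1.19. AK007918 (A_51_P311235, chr12:116308677-116308736), a pancreas cDNA described as serum IgG2a heavy chain, gave -1.25 in mouse 1 and -1.28 in mouse 2. Its mean was -1.26 ± 0.02 (SD, n = 2), 2.40-fold lower, with an adjusted p of 0.00136 in limma. The probe lies among the variable segments rather than in the constant region, so it need not read IgG2a, or gamma chains, alone. Ighg (A_52_P74106, chr12:113754262-113754321), the gamma polypeptide, gave -1.06 and -1.16. Its mean was -1.11 ± 0.07, 2.16-fold lower, with an adjusted p of 0.00205 in limma. Both gamma probes stayed below 0 under each loess scaling, with means of -0.56 and -0.71 under normexp with offset 50. Of the 5 other gamma probes none had a readable Cy5 signal on any array, and XM_985244 and the other AK007918 probe were readable in Cy3 on both.

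Ratios of the probes named gamma lay below those of the probes named mu in the software's values, but not under every normalization. Of the 2 gamma probes, A_51_P311235 lies among the variable segments and need not read gamma chains alone. The lowest mu ratio on each array was that of A_51_P266248, whose target is not settled. On array 1 the higher gamma ratio was -1.06 and the lowest mu ratio -0.95. On array 2 these were -1.16 and -1.04. The classes did not overlap on either array in 7 of 11 alternatives, most of which share the same ratios. They overlapped on at least 1 array under normexp with offset 50 or 10, under median centring, and under the loess drawn on probes readable in both channels. In the last, the higher gamma ratio on array 1 was -0.25, above the highest mu ratio of -0.27. With 2 gamma and 4 mu probes, which share RNA and partly target, the difference between the isotypes was not tested. The only probe described as alpha (A_51_P270661, chr12:113712756-113712814) gave no comparison. It was not well above background in any channel, with Cy5 signals of 37.8 and 36.9. The BC004786 probes lie at lower coordinates than it, and whether they read the alpha chain is not settled.

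The 3 probes of BC004786, a heavy chain mRNA of the J558 family, differed more between the mice. They lie beside each other at the low end of the heavy chain constant genes, and the file names them Igh-VJ558 after the variable family, so their isotype is not settled. A_51_P509679 (chr12:113706582-113706641) gave -0.41 in mouse 1 and -1.16 in mouse 2, a mean of -0.78 ± 0.53 (adjusted p = 0.0201, limma), and turned to 1.55 under normexp with offset 50. A_51_P180159 gave -0.09 and -0.72, a mean of -0.41 ± 0.44 (adjusted p = 0.122, limma). A_51_P187645 gave 0.14 and -0.81, a mean of -0.33 ± 0.67 (adjusted p = 0.279, limma). Mouse 2 was lower than mouse 1 at all 3 probes, and the direction of each mean turned under normexp with offset 50. In the current gene order, read from the low coordinate, Igha comes first, followed by Ighe, Ighg2c, Ighg2b, Ighg1, Ighg3, Ighd and Ighm. The BC004786 probes lie at lower coordinates than the probe described as alpha, at the end where Igha comes first. The order is that of build GRCm38 and was not used to assign any probe, so whether they read alpha was not tested.

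Over this constant end of the locus, from the BC004786 probes to the last Igh-6 probe, lay 13 of the immunoglobulin probes. Of these 8 were tested, all 8 had a mean below 0 in the software's ratios, and 6 were called lower. Over all 5072 probes tested, 18.4% were called lower and 37.4% lay below 0 on both arrays. The share of them with a mean below 0 was not counted. Of the 8 probes, 3 share the BC004786 cDNA and 4 are named mu, so they do not stand for 8 separate transcripts. The untested ones include X87228 probes A_51_P122752, A_51_P461067 and A_52_P1054013 (chr12:113776734-113777058), classed with the other heavy chains. They were readable in Cy3 on both arrays, and A_51_P122752 alone also in Cy5, on array 1. The stretch was drawn after the positions were seen. Directions of its brightest probes are those that turned, as given above.

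The other heavy chain probes, most of them in variable regions, could hardly be read. Of the 39 other heavy chain probes 3 were tested, and they did not move together. NP614311 (A_52_P490470, chr12:115806928-115806987), a rearranged VDJ sequence, gave -0.37 and -0.95, a mean of -0.66 ± 0.41 (adjusted p = 0.0256, limma). U39781 (A_52_P139027, chr12:115655885-115655944), an IgM hybridoma sequence of the J558 family, gave 0.04 and -0.27, a mean of -0.12 ± 0.23 (adjusted p = 0.597, limma). AY172876 (A_52_P565636, chr12:115344023-115344082), a cloned variable region, gave 1.51 and 0.86 and rose by a mean of 1.19 ± 0.46, 2.27-fold (adjusted p = 0.00349, limma). AY172876 had Cy5 signals of 50.8 and 50.2, near the limit of reading. It sat in the dimmest decile of the tested probes, where the median log2 ratio was 0.49, 48.2% of probes were called higher and 2.17% lower. Its mean was 0.17 under normexp with offset 50 and 0.052 under loess on probes readable in both channels, and it turned to -1.11 under median centring.

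Among the light chains, lambda was readable and kappa was not. The brightest lambda probe, LOC207685 (A_51_P483576, chr16:18978932-18978991), described as lambda variable 1, gave -0.81 in mouse 1 and -0.61 in mouse 2. Its mean was -0.71 ± 0.15 (SD, n = 2; adjusted p = 0.0104, limma), and it turned to 1.03 under normexp with offset 50. Igl-V1 A_51_P503756 (chr16:18975296-18975355) gave -0.69 and -0.24, a mean of -0.47 ± 0.32 (adjusted p = 0.064, limma). Igl-V1 A_52_P450277 (chr16:18975528-18975587) gave -0.25 and -0.38, a mean of -0.32 ± 0.09 (adjusted p = 0.136, limma). Neither of the latter probes passed the test, though both mice lay below the pool.

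A pair of lambda probes at nearly the same place disagreed. Igl-V1 A_51_P503757 spans chr16:18976818-18998635 and gave -0.32 and -0.13, a mean of -0.23 ± 0.13 (adjusted p = 0.275, limma). Igl-V1 A_52_P383114 spans chr16:18976803-18998617, was designed to AY151141, the lambda variable region of a cloned single-chain antibody, and gave 0.45 and 1.78. It rose by a mean of 1.11 ± 0.94, 2.17-fold (adjusted p = 0.0188, limma), with a difference of 1.33 between the mice. Its signals in Cy5 were 49.5 for mouse 1 and 78.8 for mouse 2. The listed positions nearly coincide, the ratios point in opposite directions, and under median centring A_52_P383114 turned to -1.51. The other 4 lambda probes, all within chr16:18998702-18998876, were read in Cy5 in mouse 2 alone, where their log2 ratios ranged from -1.15 to -0.53. They were not tested.

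None of the 14 kappa probes was tested. In Cy5 a single one was well above background and only on array 2, Igk-V1 A_52_P957659 (chr6:68200810-68200869), with a signal of 48.1, the highest of any kappa probe. The probe described as the kappa C region (A_51_P390937, chr6:68186355-68186414, named Igkv14-111 in the file) had Cy5 signals of 39.0 and 42.7 and Cy3 signals of 420 and 253. Most kappa probes, 11 of 14, were well above background only in Cy3 on 1 array. Outside the 90 probes, the array holds 45 whose description says "Ig" in place of immunoglobulin, 27 of them kappa. They were looked up after the values were seen. None of the 45 passed the filter for the test, and 3 of them, all heavy chain variable probes, were well above background in Cy5 on 1 array. Their log2 ratios there were -0.43 for A_51_P103364 on array 1, and 6.17 for A_51_P513770 and 4.08 for A_52_P15966 on array 2. None of the 27 kappa probes was well above background in Cy5, where their signals ran from 31.9 to 42.6. They include 2 further probes described as the kappa C region, A_51_P395899 with Cy5 signals of 37.1 and 42.6 and A_52_P374653 with 39.4 and 39.8. The ratio of kappa to lambda could therefore not be followed. Both probes on AF043688, also named Igkv14-111, are placed on chromosome 12 rather than with the kappa genes and did not pass the background test in Cy5. The 7 light chain probes of unnamed type and both Igll1 probes had no readable Cy5 signal. The Igll1 Cy5 signals lay between 34.0 and 39.4.

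The J chain was lower in both mice at both of its probes. Igj A_51_P150705 (chr5:89595625-89595684) gave -0.46 in mouse 1 and -0.76 in mouse 2, a mean of -0.61 ± 0.21 (SD, n = 2; adjusted p = 0.0207, limma). Igj A_51_P150710 (chr5:89595455-89595514) gave -0.52 and -0.58, a mean of -0.55 ± 0.04 (adjusted p = 0.0247, limma). In the software's ratios the transcript was thus 1.53-fold and 1.46-fold lower at neighbouring probes. Under normexp with offset 50 the former stayed below 0 at -0.41, and the latter, the brighter of both, turned to 0.14.

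The J chain gene, now named Jchain, does not rearrange, so its promoter has a fixed start, and it is shown for that reason. The 250 bases before the start, from RefSeq in build GRCm38.p6 (chr5:88527898-88528147, minus strand), are given 5′ to 3′ with matches to the E box in capitals.
Jchain promoter: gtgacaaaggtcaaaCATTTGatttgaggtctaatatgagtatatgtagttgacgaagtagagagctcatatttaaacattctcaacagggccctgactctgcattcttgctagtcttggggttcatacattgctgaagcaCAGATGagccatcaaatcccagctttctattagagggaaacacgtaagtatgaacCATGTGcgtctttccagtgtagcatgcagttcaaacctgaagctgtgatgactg
Both strands were searched for 3 motifs, and overlap between matches of different motifs was allowed. The E box, CANNTG, matched 3 times, at 235, 109 and 54 bases before the start, and 66.2% of 32851 mouse promoters of the same length held it. The core of ETS factors, GGAA, matched 2 times, at 74 and 43 bases before the start, and 93.4% of promoters held it. The octamer ATGCAAAT, known from immunoglobulin gene promoters, had no match in this window, and 1.60% of promoters held it. A match is a stretch of letters and says nothing of binding.

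The direction of an immunoglobulin probe followed its brightness under several scalings. The 7 brightest of the 19 probes, from ENSMUST00000003582 to BC004786 A_51_P180159, reversed under at least 1 of 5 loess scalings, and the 12 dimmer ones reversed under none. From the brightest down, their means were 2.13, 1.55, 1.23, 1.03, 1.05, 0.14 and 0.28 with offset 50 and loess over all probes. The same 7 lay between -0.77 and -0.32 with the loess drawn on probes readable in both channels, and between -0.87 and -0.33 in the software's ratios. Of those 12, 10 lay below 0 and 2 above, and 6 of the 10 were called lower in the software's ratios. None of the 6 was called with offset 50. Over all 5072 probes 18.4% were called lower in the software's ratios, and how many kept their direction over the scalings was not counted. These 6 were both gamma probes, mu probes A_51_P266248 and A_51_P485421, Igj A_51_P150705 and NP614311. In the software's ratios the 8 members of the brightest decile stood among probes with a median of 0.00, of which 17.9% were called lower and 22% higher. The top mu probe had Cy3 signals of 97064 and 61762 and Cy5 signals of 1066 and 1196.

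Mouse 2 lay below mouse 1 at 15 of the 19 probes. The median difference over all tested probes was -0.07, also below 0. The share of them that went this way was not counted, so the 15 cannot be set against the array. Several of the 19 probes also share a transcript. The difference, mouse 2 minus mouse 1, was -0.75, -0.62 and -0.95 at the BC004786 probes and between -0.24 and -0.09 at the mu probes. It was -0.10 and -0.03 at the gamma probes, -0.30 and -0.06 at the J chain probes, and between -0.13 and 1.33 at the lambda probes. At the other heavy chain probes it was -0.65 for AY172876, -0.58 for NP614311 and -0.32 for U39781, so differences of this size were not particular to BC004786. The 5th percentile over all tested probes was -0.71, and 7.20% of them differed by -0.62 or less. In the brightest decile of all probes, to which the BC004786 probes belong, the 5th to 95th percentiles ran from -0.47 to 0.59, and 3.15% of probes differed by -0.62 or less. The BC004786 probes, which share a cDNA, thus lay outside that range and the mu probes inside it. Over 12 settings the BC004786 differences ran from -2.50 to -0.43 and those of mu from -2.20 to 0.19. With 1 sample of each mouse the difference has no replicate check, and it was noticed after the values were seen.

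For 10 probes the pool was readable on both arrays and neither hyperglycemic sample was. They were 7 other heavy chain probes, 2 gamma probes and 1 kappa probe. The channels were scaled to each other for them (normexp with offset 50, loess, then Aquantile). The floor of the lowest readable Cy5 signals did not exceed their own Cy5 values, so it set no bound. Those values, not readable in Cy5, lay from 0.99-fold to 1.22-fold lower than the pool, 9 of 10 above 1, and were not tested. Across the array 2283 probes, 5.54%, were readable in this way in the pool alone, and 1980 of them also lay above 1.

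The genes around immunoglobulin production moved in several directions. Of 20 B cell identity genes 8 were tested, with 3 lower, 1 higher and 4 not called, and their median was -0.31 against 0.06 for all probes. Spib, a transcription factor of B cells, gave -1.27 and -1.48 and fell by a mean of 1.38 ± 0.15 (adjusted p = 0.00113, limma). Ms4a1, which encodes the B cell surface protein CD20, fell by 1.12 ± 0.06 (adjusted p = 0.00196, limma). Pax5, which maintains B cell identity, gave 1.70 and 0.64, a mean of 1.17 ± 0.75 (adjusted p = 0.00897, limma), and was higher. Cd79b, the signalling partner of surface immunoglobulin, gave -0.45 and -0.35 and did not pass the test (adjusted p = 0.0685, limma). Spib and Ms4a1 thus lay below the pool in both mice and Pax5 above it.

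Of 30 plasma cell and secretory genes 15 were tested, with 4 lower, 3 higher and 8 not called, and a median of 0.12. Edem1, which helps dispose of misfolded glycoproteins, fell by 1.18 ± 0.38 (adjusted p = 0.00285, limma). Mzb1, a chaperone for immunoglobulin in the endoplasmic reticulum, fell by 0.83 ± 0.18 (adjusted p = 0.00628, limma). Fkbp2, a prolyl isomerase there, fell by 0.78 ± 0.10 (adjusted p = 0.00688, limma). Cav1, a membrane protein that is also abundant in endothelium and fat, rose by 0.73 ± 0.21 (adjusted p = 0.0106, limma). Of 18 class switch and germinal centre genes 5 were tested. Cxcl13, the chemokine of B cell follicles, rose by 0.71 ± 0.21 (adjusted p = 0.0118, limma). Bcl6, the transcription factor of germinal centre B cells, fell by 0.47 ± 0.15 (adjusted p = 0.045, limma). The other 3 did not pass. Of 11 immunoglobulin receptor and transport genes 3 were tested, and Fcmr, the receptor for IgM, fell by 1.05 ± 0.24 (adjusted p = 0.00299, limma). Of 8 genes of early B cells and recombination only Il7r was tested; it fell by 1.58 ± 0.12 (adjusted p = 0.00084, limma), and T cells also express it. The called genes of these lists kept their direction under the 5 loess scalings.

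Markers of other cells moved in the same samples. All 9 tested T cell genes of 14 fell, with a median of -1.09 and means of -1.86 for Cd3g and -1.83 for Cd8a, and they kept their direction under the 5 scalings. The immunoglobulin median of -0.61 lay above that of the T cell genes and below the -0.31 of the B cell list in the software's ratios, but with the loess on probes readable in both channels it was -0.41 against -0.40 for T cells, and under median centring it was -3.90, below -3.29 for T cells and -3.27 for B cells. Of 12 exocrine pancreas genes 11 were tested, with 7 higher, 1 lower and a median of 0.67; the lower one, Cela1, did not keep its direction over the scalings. All 4 tested red cell genes of 6 rose, with a median of 1.13 and a range from 0.78 for Slc4a1 to 1.23 for Hba-a1. The part of these shifts in the immunoglobulin ratios was not tested.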

How the data were processed

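Agilent-014868 arrays were hybridised with RNA of pancreatic lymph nodes (1 ug of total RNA, linear amplification, per the labels). Agilent Feature Extraction 10.7.3.1 quantified the scans, per the file headers, and gives each spot's unnormalized intensity with its local background. Per the file headers, the deposited log10 ratio is Cy5 over Cy3 of processed signals, after background subtraction, surrogates for spots not above background, and linear and LOWESS dye normalization. The deposited value table holds log2 ratios, which equal these on another log base; how its probes were chosen is not given in the sources used here. Positions are of build mm8 in the files.

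Log10 ratios were turned to log2, spots marked as outliers or non-uniform (338 and 184) were left out, and spots of a probe were averaged. Probes that passed the software's background test in Cy3 and Cy5 on each array (5072) were tested with limma 3.58.1 in R 4.3.3. The test set the mean against 0, two-sided, with 1 residual degree of freedom, adjusted by Benjamini-Hochberg. To this limma added 6.35 prior degrees of freedom from all tested probes, so standard errors rest mostly on the shared spread. The standard error used was 0.29 at A_52_P383114, whose SD was 0.94, and 0.15 at A_51_P311235, whose SD was 0.02. With 2 samples an exact permutation test cannot go below p = 0.5, and the number of arrays limits the precision. The scripts were tested on simulated data. Both arrays lay on 1 slide.

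The probes, the gene lists and this fit were chosen with earlier results of these data known. The common scheme for such arrays, normexp (offset 50) and loess (span 0.3) on scanner signals, is the first of 13 alternatives, and under it no immunoglobulin probe is called. All probes of constant regions, the J chain and Igll1 were to be named, with the 6 highest and 6 lowest other probes and up to 4 genes of each list by lowest p; Cd79b and Cela1 were added after their values were seen, and 1 gene that the rule names is not reported here. Of the 90 probes 42 matched the gene table of GRCm38. Names are the files' own where unmatched.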

Additional observations from a re-analysis of the deposited data

How the results depend on the processing

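The fit on the deposited value table, a further loess on intensity, marked spots kept and an intensity trend in the variance kept every direction, with 11 to 13 probes lower and 2 higher. Over all tested probes these called 918 to 1093 lower and 1155 to 1312 higher. Calls (higher, lower) were 0 and 0 under normexp offset 50 with loess, 0 and 0 under offset 10, 0 and 19 under median centring, 0 and 11 under loess on probes readable in both channels, and 3 and 5 without background correction. Over all 5072 probes the calls were 94 and 0, 0 and 0, 0 and 5071, 487 and 420, and 1001 and 652 in the same order. The calls under offset 10 and median centring thus matched those of the whole array. Keeping probes above background in at least 1 channel gave 0 and 0 calls in limma (20 of 36 members at an unadjusted p under 0.05), and no filter gave 0 and 0 (14 of 90). Under these filters no probe of the array was called, of 8815 and 41162 tested. Of those, 3396 and 4295 had an unadjusted p under 0.05 in limma. Under offset 10, 4 members and 1131 of all 5072 probes had an unadjusted p under 0.05 in limma. The median was -0.15, -0.21, -3.90, -0.41 and -0.21 in the order of the 5 scalings above. Median centring left the ratio tied to intensity (Spearman -0.89 across all probes, whose median was -2.55), so its calls are relative to no level. Without replicate 1 or 2 the median ranged from -0.69 to -0.46.

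Reversed means under offset 50 were 2.13 (A_52_P571419), 1.55 (A_51_P509679), 1.23 (A_52_P358360), 1.03 (A_51_P483576), 1.05 (A_51_P187645), 0.28 (A_51_P180159) and 0.14 (A_51_P150710). Without background correction the first 5 of these were 0.89, 0.54, 0.36, 0.30 and 0.36, of which A_52_P571419 (adjusted p = 0.00274, limma) and A_51_P509679 (adjusted p = 0.049, limma) were called higher. Under offset 10 the first 6 were 1.11, 0.81, 0.59, 0.48, 0.65 and 0.072. Median centring turned A_52_P383114 to -1.51 and A_52_P565636 to -1.11. Leaving out a mouse moved A_51_P187645 from -0.81 (without replicate 1) to 0.14 (without replicate 2) and A_52_P139027 from -0.27 to 0.045. The cause of these reversals was not tested. No paired analysis was possible because a single control sample served both arrays. Low Cy5 signal over background limits what can be said of 71 of the 90 probes, kappa chains among them. The kappa probes were dim in the pool as well, with no Cy3 signal above 1199 on array 1.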
